A study of Mus musculus and Homo sapiens with 12 samples.

Results

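The machinery that places and reads histone H3 lysine 9 (H3K9) methylation over repeats was followed through 10 genes, Trim28, Setdb1, Atrx, Daxx, Morc3, Mphosph8, Pphln1, Ehmt1, Ehmt2 and Chaf1a, and through the human genes of the same symbols. Each was found by its Ensembl identifier in the count files of all 12 libraries, as 10 of 54446 mouse genes and 10 of 58676 human genes. The measurement was 5-methylcytosine (m5C) in chromatin-associated RNA (caRNA), the RNA that stays with chromatin when a cell is fractionated. RNA was fragmented, fragments carrying m5C were pulled down with an antibody (IP), and these were sequenced beside fragments without pull-down (Input). The 4 groups were mESC Input, mESC IP, K562 Input and K562 IP, with 3 libraries in each.

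All cells were labelled wild type, and the labels give no treatment, while Input and IP share one growth label. The mESC were mouse embryonic stem cells kept with LIF, CHIR99021 and PD0325901 and passaged on gelatin to remove feeder cells. K562 is an established human leukaemia line with erythroid features, and its growth label lists puromycin although the line is labelled wild type. Groups follow the library titles. The antibody label contradicts them, since it reads none for mESC IP and names the one against m5C for K562 Input. The study speaks of biological replicates, but nothing in the labels says that libraries of a group came from separate cultures. If they did not, p-values measure only the spread between these libraries, which may be technical.

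As background, most transposable elements in mammalian genomes are kept silent by H3K9 methylation. KRAB zinc finger proteins bind a repeat and bring TRIM28, which recruits the methyltransferase SETDB1, while the HUSH complex spreads the mark and ATRX with DAXX deposits histone H3.3 at the same places. EHMT1 and EHMT2 form a dimer that adds the lower methylation states, and CAF-1 supplies new histones behind the replication fork. In mouse embryonic stem cells loss of several of these factors is known to release endogenous retroviruses.

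Depth set what could be measured. Gene counts were 29007088 to 34752646 in the mESC Input libraries, 473398 to 592324 in mESC IP, 10477119 to 11865285 in K562 Input and 93110 to 111286 in K562 IP. The members were therefore read from 35 to 822 counts in the 3 mESC IP libraries together and from 1 to 174 counts in the 3 K562 IP libraries together. Of 8 stem cell markers, 7 stood at 1 CPM or more in mESC Input, and Sox2 was listed at 0. CPM is the count of a gene scaled to the gene counts of its library (counts per 1e6). Of 8 fibroblast markers, which feeder cells would carry, 3 stood at 1 CPM or more, with Col1a1 at 29.4 CPM and Lum listed at 0, and the list summed to 54.0 to 56.0 CPM across the Input libraries. In K562 Input, 8 of 10 erythroid and leukaemic markers stood at 1 CPM or more, with HBG2 and HBE1 listed at 0. The cell type label calls K562 a lymphoblast, but of 8 lymphoid markers only RAG1 (31.8 CPM) and CD3D reached 1 CPM, and MS4A1 and CD79B were listed at 0.

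The levels of the members in unenriched caRNA were compared first, as Input CPM per kilobase of annotated exon, a level and not a difference. In mESC, Morc3 was highest at 52.6 ± 0.791 CPM per kilobase (SD, n = 3). Atrx followed at 51.0 ± 0.556 and Trim28 at 51.0 ± 1.19, and the ranges of these neighbours overlapped. Mphosph8 (42.1 ± 0.674), Ehmt1 (34.9 ± 0.093), Pphln1 (21.5 ± 0.151), Setdb1 (20.3 ± 0.219), Chaf1a (19.7 ± 0.196), Ehmt2 (8.17 ± 0.557) and Daxx (6.59 ± 0.274) followed in that order with no overlap between neighbours. The 3 Input libraries thus ordered all members alike except Atrx and Trim28. With the length of the longest transcript in place of all exons, Atrx moved to the top at 108 CPM per kilobase.

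In K562 the order was another one. CHAF1A was highest at 44.9 ± 1.29 CPM per kilobase (SD, n = 3), then MORC3 at 29.7 ± 0.689 and TRIM28 at 17.5 ± 0.424. PPHLN1 (14.9 ± 0.368) and EHMT1 (14.3 ± 0.248) overlapped in range. MPHOSPH8 stood at 12.4 ± 0.182, SETDB1 at 10.8 ± 0.446 and ATRX at 7.98 ± 0.080. EHMT2 (1.99 ± 0.181) and DAXX (1.54 ± 0.114) were lowest, as they were in mESC. With the longest transcript as the length, EHMT1 moved up to the third place at 40.5 CPM per kilobase and TRIM28 down to the fifth at 22.4, while CHAF1A and MORC3 stayed highest and EHMT2 and DAXX lowest. The levels in the 2 species are set side by side and were not tested, because species, cell type and library preparation cannot be told apart here. In bulk RNA, fewer cells that use a gene and less of its RNA per cell cannot be told apart either.

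DAXX and EHMT2 share a neighbourhood in the human genome. Both lie on chromosome 6, DAXX at chr6:33318558-33323016 and EHMT2 at chr6:31879759-31897698 (GRCh38). On the log2 scale, with 0.1 CPM added, K562 Input stood at -2.11 against mESC Input for DAXX and at -1.62 for EHMT2. The 52 other shared genes within 2 Mb of either had a median of -1.98, and 6 of them, 11.5%, were listed at 0 in K562. Over the 8034 remaining shared genes with at least 10 CPM in mESC Input the median was -0.36, and 2.58% were listed at 0. The low level of both members was thus shared by the genes around them, but it was not particular to that stretch. ATRX, on the X chromosome, stood at -2.61, TRIM28 at -1.49 and MPHOSPH8 at -1.31, and what sets these levels was not tested.

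**Figure D1:**
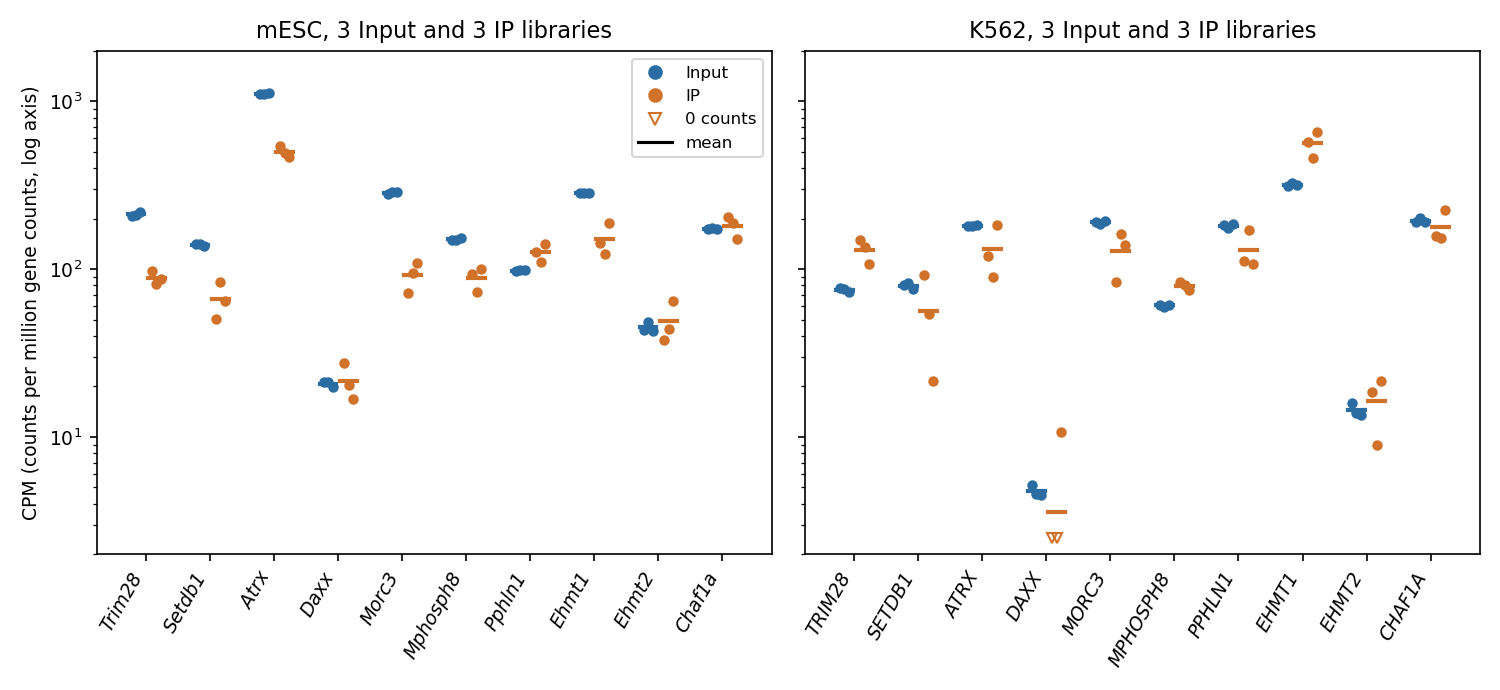
CPM of each member (log axis) in the 3 Input and 3 IP libraries of mESC (left) and K562 (right); points are libraries, bars are means and open triangles are libraries with 0 counts. The Input points of a gene lie close together, and the IP points spread more widely, as from 21.5 to 92.6 CPM for SETDB1 in K562.

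The pull-down was then compared with Input within each line. CPM shows whether a member's RNA took a larger or smaller share of the gene counts in IP than in Input. The main test asks this only after a trimmed mean of gene ratios is taken out (TMM scaling), so its answer can differ. Genes held 28.3% to 28.6% of records in mESC IP and 80.7% to 81.0% in mESC Input. For K562 these shares were 38.6% to 39.3% in IP and 73.8% to 74.0% in Input. A higher ratio is thus not by itself a larger share of all records. In mESC all 10 members were lower in IP in the edgeR quasi-likelihood test with TMM scaling (Benjamini-Hochberg adjusted p under 0.05), against 42.0% of 20244 tested genes called lower and 39.9% called higher. The median log2 IP/Input of the members was -1.81, and that of all tested genes was -0.17. The direction of 4 members rests on the scaling. TMM takes out a trimmed mean of gene ratios, while scaling by library size alone does not, and with the latter the median of all genes was 0.83, higher genes were 67.9% of all calls instead of 48.7%, and Daxx, Pphln1, Ehmt2 and Chaf1a turned positive. The CPM values below are on the library size scale and the log2 values on the TMM scale.

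The 10 members fell into a set of 6 and a set of 4 in mESC, a split made after their values were seen. In Trim28, Setdb1, Atrx, Morc3, Mphosph8 and Ehmt1, log2 of IP CPM over mean Input CPM lay between -1.99 and -0.60 in the IP libraries taken singly. In Daxx, Pphln1, Ehmt2 and Chaf1a it lay between -0.30 and 0.53. No IP library put a gene of one set inside the range of the other. The sets were drawn from these same values, so this is no support for the split. A difference between genes of a library does not depend on how that library is scaled.

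Trim28 (ENSMUSG00000005566.14, chr7:12999114-13031035, GRCm38, plus strand) encodes the corepressor that KRAB zinc finger proteins bring to repeats. It was counted at 208, 211 and 218 CPM in mESC Input and at 97.2, 81.6 and 87.8 CPM in mESC IP. All IP libraries lay below all Input libraries, as for 27.6% of tested genes, and the log2 IP/Input was -2.24 (SE 0.12, edgeR adjusted p = 1.29e-10). Its partner Setdb1 (chr3:95323525-95357202, minus strand), the enzyme that trimethylates H3K9 there, had 140, 140 and 138 CPM in Input and 50.7, 83.3 and 64.2 CPM in IP. The ranges did not overlap, and the log2 IP/Input was -2.03 (SE 0.15, adjusted p = 2.74e-09).

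Atrx (chrX:105797615-105929403, minus strand) encodes a chromatin remodeller and had the most reads of all members. It stood at 1107, 1099 and 1123 CPM in mESC Input and at 543, 491 and 466 CPM in IP, a log2 IP/Input of -2.13 (SE 0.06, adjusted p = 1.22e-13). Its partner Daxx (chr17:33909414-33915590, plus strand), the chaperone that hands over H3.3, was far less abundant. Daxx had 21.3, 21.2 and 19.8 CPM in Input and 27.5, 20.4 and 16.9 CPM in IP, so the groups overlapped. Its log2 IP/Input was -0.94 (SE 0.27, adjusted p = 0.00389) with TMM and 0.06 (adjusted p = 0.857) with library size scaling, which ends the call. The partners of this pair thus differed in their IP to Input ratio in every mESC IP library, before Input level is taken into account.

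Morc3 (chr16:93832121-93876073, plus strand), a nuclear ATPase known to take part in silencing endogenous retroviruses, had the lowest ratio of the members. It stood at 281, 286 and 290 CPM in Input and at 71.8, 95.2 and 108 CPM in IP, a log2 IP/Input of -2.59 (SE 0.12, adjusted p = 1.49e-11). It lay at the 6.31 percentile of all tested genes.

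The HUSH subunits did not move alike. Mphosph8 (chr14:56668248-56697430, plus strand) encodes the chromodomain protein that binds methylated H3K9. It had 150, 150 and 154 CPM in Input and 92.9, 73.1 and 99.6 CPM in IP, a log2 IP/Input of -1.75 (SE 0.13, adjusted p = 5.21e-09). Pphln1 (chr15:93398350-93491510, plus strand) encodes periphilin, another HUSH subunit. It had 97.1, 98.4 and 98.1 CPM in Input and 127, 111 and 142 CPM in IP. Pphln1 was the only member whose IP libraries all lay above its Input libraries in mESC, as for 47.7% of tested genes. Its log2 IP/Input was -0.60 (SE 0.12, adjusted p = 0.000305) with TMM and 0.40 (adjusted p = 0.0135) with library size scaling, so that it passed the test in both directions. Relative to the median of all genes it stood at -0.43 on the log2 TMM scale.

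The genes of the methyltransferase dimer also differed in ratio, again before Input level is taken into account. Ehmt1 (GLP, chr2:24789928-24919614, minus strand) had 283, 283 and 284 CPM in Input and 144, 122 and 187 CPM in IP, a log2 IP/Input of -1.88 (SE 0.11, adjusted p = 2.33e-10). Ehmt2 (G9a, chr17:34898469-34914052, plus strand) had 43.2, 48.4 and 43.0 CPM in Input and 38.0, 44.2 and 64.2 CPM in IP, and the groups overlapped. Its log2 IP/Input was -0.83 (SE 0.21, adjusted p = 0.00162) with TMM and 0.18 (adjusted p = 0.509) with library size scaling.

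Chaf1a (chr17:56040439-56072289, plus strand), the large subunit of the histone chaperone CAF-1, had 173, 176 and 174 CPM in Input and 205, 187 and 150 CPM in IP, and the groups overlapped. Its log2 IP/Input was -0.93 (SE 0.11, adjusted p = 8.31e-07) with TMM and 0.07 (adjusted p = 0.583) with library size scaling. Of its annotated exon bases, 52.5% also lie in exons of Ubxn6 on the other strand. How the counting treated strand is not stated, so the reads of these genes cannot be told apart with certainty. For the other mouse members that share was at most 10.7% (Mphosph8).

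**Figure D2:**
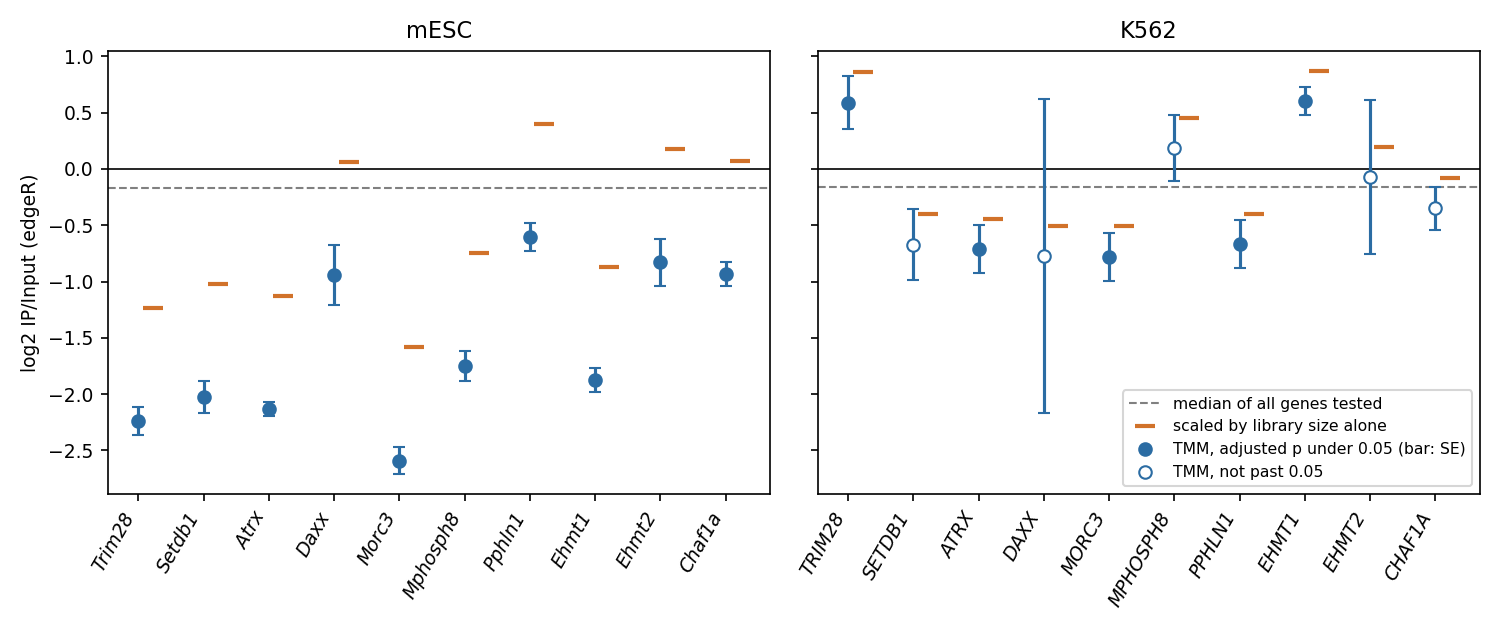
Log2 IP/Input of each member (edgeR) in mESC (left) and K562 (right), with TMM scaling as points with SE bars, filled where the adjusted p was under 0.05, and with library size scaling alone as orange dashes; the dashed line is the median of all tested genes. In mESC the 10 points lie between -2.59 and -0.60, and in K562 TRIM28 and EHMT1 lie highest, at 0.59 and 0.60.

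The level of a gene in Input moved with its IP to Input ratio across all genes, and this background bears on the members. In mESC the median log2 IP/Input (TMM) was 3.66 for the 9343 genes under 5 CPM in Input and fell in each higher bin, to -2.10 for the 225 genes at 500 CPM or more. A gene low in Input could pass the filter on low counts through IP alone, and Input is also the denominator. The high medians of the lowest bins are thus in part fixed in advance. In mESC no member lies under 20 CPM. Set against genes of its own bin, Atrx differed by -0.03 on the log2 scale, Ehmt1 by 0.08, Mphosph8 by 0.09, Setdb1 by -0.19 and Trim28 by -0.28, all within the middle 50% of the bin. Morc3 stood lower, by -0.63, at the 9.27 percentile of 1003 genes with 200 to 500 CPM. Pphln1 (0.99 above its bin median) and Chaf1a (0.90 above) stood at the 86.8 and 87.0 percentiles of their bins. Daxx and Ehmt2 lay 0.31 and 0.43 above their bin median, within the middle 50%. The bin medians were -2.10 for Atrx and -1.26 for its partner Daxx, and -1.96 for Ehmt1 and -1.26 for Ehmt2. The bins of these partners thus differed in the same direction as the partners. The low ratio of most members was thus close to that of other genes as abundant in mESC caRNA, and what part m5C has in it was not tested.

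**Figure D3:**
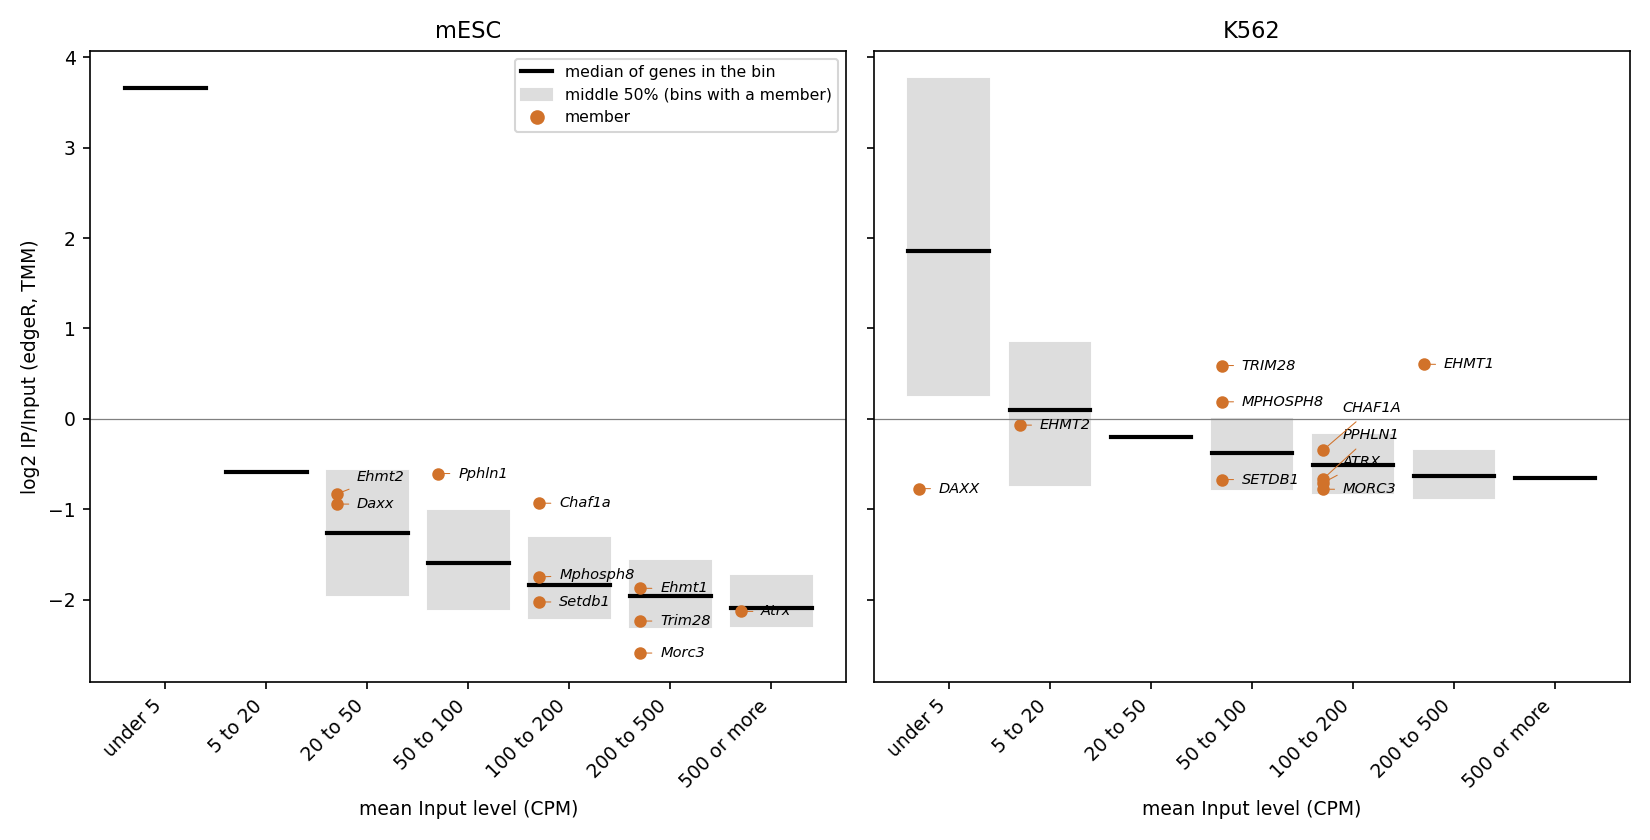
Log2 IP/Input (edgeR, TMM) by mean Input level in CPM, in mESC (left) and K562 (right); black lines are medians of all tested genes in a bin, grey boxes span the middle 50% of bins that hold a member, and orange points are members. In mESC Pphln1, Chaf1a and Morc3 lie outside their box, and in K562 TRIM28, EHMT1, MPHOSPH8 and DAXX do. DAXX rests on 1 IP count, in a bin whose genes could pass the filter on low counts through IP alone.

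In K562 the members went both ways. Here too the ratio was lower in genes with more Input, with bin medians from 1.85 under 5 CPM to -0.66 at 500 CPM or more. The limit given for the lowest mESC bins applies here as well, and the lowest K562 bin holds DAXX. Of 10 members, TRIM28 and EHMT1 were called higher in IP and ATRX, MORC3 and PPHLN1 lower (edgeR quasi-likelihood test, TMM), against 15.1% of 14522 tested genes called higher and 16.4% called lower. The median log2 IP/Input of the members was -0.51, and that of all tested genes was -0.16. No member kept its call in all alternatives, and with library size scaling alone the 3 lower calls were lost, while higher genes went from 47.9% to 70.2% of all calls (57.1% with RLE). Without the filter on low counts no member was called higher and 5 were called lower.

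EHMT1 (ENSG00000181090.20, chr9:137618992-137870016, GRCh38, plus strand) was the member with the firmest call in K562. It stood at 313, 324 and 317 CPM in Input and at 574, 458 and 655 CPM in IP, read from 174 IP counts. All IP libraries lay above all Input libraries, as for 22.4% of tested genes, and the log2 IP/Input was 0.60 (SE 0.12, adjusted p = 2.19e-05). The call held in 14 of 15 fits and was lost without the filter on low counts (0.26, adjusted p = 0.0806). Among the 950 genes with 200 to 500 CPM in K562 Input it stood at the 98.7 percentile, 1.24 above the bin median on the log2 scale.

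TRIM28 (chr19:58544064-58550722, plus strand) had 76.9, 76.1 and 73.4 CPM in K562 Input and 148, 135 and 107 CPM in IP, from 41 IP counts. The groups did not overlap, but the log2 IP/Input of 0.59 (SE 0.24) only just passed the test (adjusted p = 0.0474). It was 0.19 (adjusted p = 0.58) after a correction for GC content, which is 64.2% in the longest TRIM28 transcript, and the call held in 5 of 15 fits. Leaving out any library other than IP replicate 3 ended it, with adjusted p of 0.052 to 0.254. Within its bin of 2244 genes TRIM28 stood at the 94.9 percentile. SETDB1 (chr1:150926263-150964744, plus strand) had 80.3, 82.2 and 75.8 CPM in Input and 92.6, 53.9 and 21.5 CPM in IP, from 18 IP counts. These overlap, and the log2 IP/Input of -0.67 (SE 0.31) did not pass the test (adjusted p = 0.0927). Without IP replicate 1 it was -1.23 (adjusted p = 0.0246).

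ATRX (chrX:77504880-77786233, minus strand) had 180, 181 and 184 CPM in K562 Input and 120, 89.9 and 183 CPM in IP. One IP library thus lay within the Input range, and the log2 IP/Input was -0.71 (SE 0.21, adjusted p = 0.00495). It was lost without IP replicate 2 (-0.50, adjusted p = 0.131) and after the GC correction (-0.28, adjusted p = 0.37). MORC3 (chr21:36320189-36386148, plus strand) had 192, 186 and 194 CPM in Input and 83.4, 162 and 140 CPM in IP, a log2 IP/Input of -0.78 (SE 0.21, adjusted p = 0.0018). Its groups did not overlap, as for the 24.4% of tested genes whose IP libraries all lay lower. Without IP replicate 1 it was -0.54 (adjusted p = 0.0921), and after the GC correction -0.36 (adjusted p = 0.239). DAXX was counted 61, 53 and 47 times in Input and 0, 0 and 1 times in IP. Its IP to Input ratio of CPM was 0.674, with an exact 95% interval from 0.0170 to 3.81 that covers counting error only, so no difference was detectable at this depth.

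PPHLN1 (chr12:42238447-42459715, plus strand) had 182, 176 and 185 CPM in K562 Input and 111, 171 and 107 CPM in IP. Its groups did not overlap, and its log2 IP/Input was -0.67 (SE 0.21, adjusted p = 0.00817). It was lost without IP replicate 1 (-0.56, adjusted p = 0.0881), without IP replicate 3 (-0.55, adjusted p = 0.0918), with DESeq2 (-0.55, adjusted p = 0.0529) and after the GC correction (-0.39, adjusted p = 0.18). With the K562 Input libraries counted as 1 sample, PPHLN1 (adjusted p = 0.065), ATRX (0.0557) and TRIM28 (0.206) lost their calls. MPHOSPH8 (chr13:19633659-19673441, plus strand) had 61.4, 59.8 and 61.3 CPM in Input and 83.4, 80.9 and 75.2 CPM in IP. No CPM value overlapped, yet the log2 IP/Input of 0.19 (SE 0.29) was not past the test (adjusted p = 0.678), with 25 IP counts behind it. EHMT2 (-0.07, SE 0.68, adjusted p = 0.957) rested on 5 IP counts and CHAF1A (-0.35, SE 0.19, adjusted p = 0.158) on 55. CHAF1A passed the test as lower after the GC correction (-0.61, adjusted p = 0.00608).

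The difference between the lines was tested as the interaction between line and IP, fitted to the 12 libraries together. Of the 10 members, TRIM28, EHMT1, MPHOSPH8, MORC3 and ATRX had a higher log2 IP/Input in K562 than in mESC and none was called lower, against 16.5% of 14241 tested genes called higher and 14.5% called lower. The median of the members was 0.75 and that of all tested genes 0.17. Genes as abundant as the members also differed between the lines, however. From the mESC bin of Input level that holds a member to the K562 bin that holds it, the bin median rose by 1.58 for ATRX, 1.45 for MORC3, 1.46 for MPHOSPH8, 1.58 for TRIM28 and 1.32 for EHMT1. Each member was therefore also set against its own bin in each line, a description with no test. The K562 value minus the mESC value was 1.25 for TRIM28, 1.16 for EHMT1, 0.48 for MPHOSPH8 and 0.37 for MORC3. It was -0.11 for SETDB1, -0.16 for ATRX, -0.59 for EHMT2, -0.74 for CHAF1A, -1.15 for PPHLN1 and -2.94 for DAXX. EHMT2 and DAXX rest on 5 and 1 K562 IP counts. Higher genes were 53.2% of all calls with TMM, 35.3% with RLE and 39.9% with library size scaling. The comparison uses the values of both lines given above and is no further evidence for either.

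TRIM28 differed by 2.19 on the log2 scale (SE 0.34, edgeR adjusted p = 8.77e-06) and EHMT1 by 1.85 (SE 0.19, adjusted p = 7.62e-09). Both passed in all 21 fits, with TRIM28 at most at an adjusted p of 0.000685 and EHMT1 at most at 6.8e-05. In CPM, TRIM28 went from IP below Input in every mESC library to IP above Input in every K562 library, and so did EHMT1. MPHOSPH8 (1.30, SE 0.39, adjusted p = 0.0111) and MORC3 (1.18, SE 0.34, adjusted p = 0.00877) passed in 17 of 21 fits, and ATRX (0.79, SE 0.29, adjusted p = 0.0412) in 11. With RLE scaling these 3 calls were lost, at 0.86, 0.74 and 0.35. Leaving out K562 IP replicate 1 lost MPHOSPH8 (adjusted p = 0.0586) and ATRX (0.1), leaving out replicate 2 lost MPHOSPH8 (0.0607) and MORC3 (0.138), and leaving out replicate 3 lost MORC3 (0.0506) and ATRX (0.359).

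SETDB1 did not pass (0.72, SE 0.48, adjusted p = 0.278), so the test does not show whether it moved with TRIM28 or apart from it. PPHLN1 had the opposite sign (-0.70, SE 0.27) and just missed the threshold (adjusted p = 0.0516). It was called lower in K562 with RLE scaling (-1.14, adjusted p = 0.00134), library size scaling (-1.01, adjusted p = 0.0041) and DESeq2 (-1.14, adjusted p = 3.53e-05). CHAF1A (-0.05, SE 0.25), EHMT2 (0.13, SE 0.84) and DAXX (-0.46, SE 1.52) did not pass, and the last 2 have too few K562 IP counts for a difference of this size to be detectable.

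**Figure D4:**
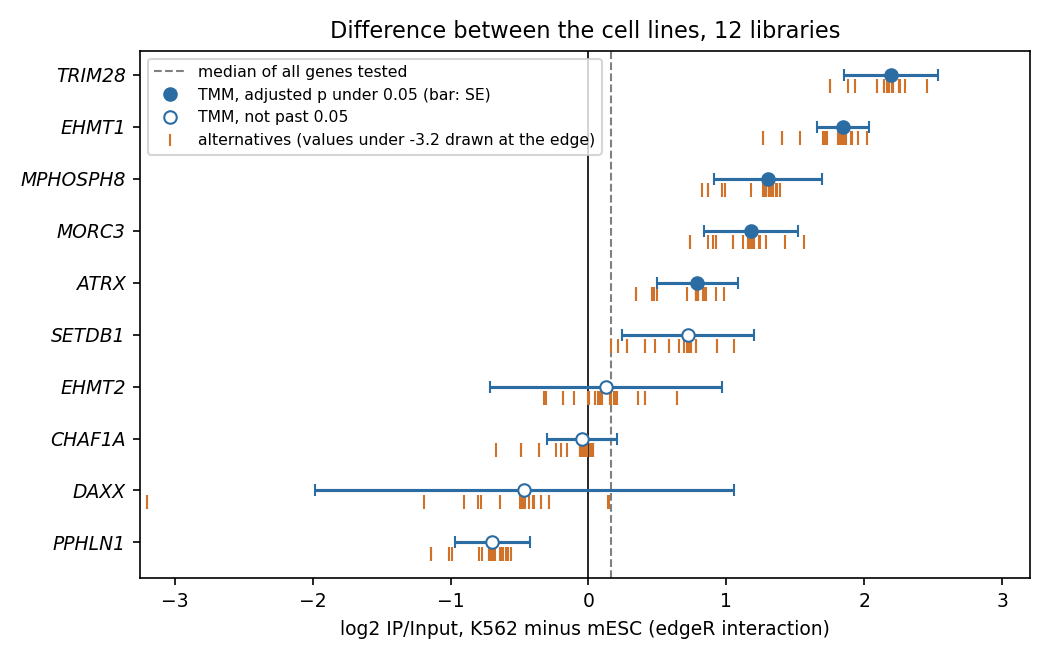
Log2 IP/Input in K562 minus that in mESC for each member (edgeR interaction, 12 libraries), with SE bars and filled points where the adjusted p was under 0.05; orange ticks are the alternative fits and the dashed line is the median of all tested genes. TRIM28 (2.19) and EHMT1 (1.85) lie furthest to the right with every tick above 1, and the ticks of EHMT2, CHAF1A and DAXX fall on both sides of 0.

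Peaks of the 3 mESC IP libraries, called by the authors for each library and strand, were searched in the member genes. The study's methods accepted a peak only where it appeared in all biological samples, while the counts here include peaks of a single list. The lists held 11012, 15235 and 15630 peaks once repeated rows were removed, with no score. Of the members, 7 held at least 1 peak, against 44.2% of the 15641 protein-coding genes tested, and these were 14 peaks in all, or 25.6 per Mb of gene body against 18.0 per Mb over those genes. No peak lay in Trim28, Atrx or Chaf1a. Of the 14 peaks, 12 lay in introns and 12 were recorded on the strand opposite to the gene. Over all peaks in exons of a single gene, 61.7% of 6077 were recorded on the opposite strand. That share covers exon peaks only, so it is not a background for peaks in introns. A region present in several lists is counted once per list among the 14.

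Pphln1 held the only peak that recurred on the same strand, in all 3 lists. Of the protein-coding genes tested, 2.28% hold such a region. It lies in an intron at chr15:93436128-93436360 (GRCm38), recorded on the minus strand, and none of its bases is repeat-masked. It is shown, because it is the recurrent one, on the plus strand of the gene, with the 183 bases that all 3 lists share in capitals.
Pphln1: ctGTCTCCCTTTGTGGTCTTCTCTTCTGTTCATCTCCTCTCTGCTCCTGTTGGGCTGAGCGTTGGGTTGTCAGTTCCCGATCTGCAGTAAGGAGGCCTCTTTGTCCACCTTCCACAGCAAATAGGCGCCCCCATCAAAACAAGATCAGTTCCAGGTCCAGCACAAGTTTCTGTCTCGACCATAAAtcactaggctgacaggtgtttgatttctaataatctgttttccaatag
Cytosine makes up 27.9% of these 233 bases on that strand, and guanine and cytosine together 48.1%. On the minus strand, on which the peak was recorded, the share of cytosine is thus lower. The same gene had the highest IP to Input ratio of the members in mESC, in the IP libraries that also gave the peaks. Replicate 3 added Pphln1 peaks at chr15:93410611-93410760, with 89 of its 150 bases in exon, and chr15:93459255-93459404, the latter on the strand of the gene and wholly repeat-masked.

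Ehmt1 held 3 peaks, all in introns and none of them recurrent on the same strand. One of them, in the list of replicate 1, lies at chr2:24834782-24834939, recorded on the strand opposite to the gene, and 50.6% of it is repeat-masked.

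Ehmt2 held a single peak, in replicate 2, at chr17:34910832-34910981, recorded on the minus strand. It spans an intron and reaches into the exons on both sides, and it is shown on the plus strand of the gene with its 11 exon bases in capitals.
Ehmt2: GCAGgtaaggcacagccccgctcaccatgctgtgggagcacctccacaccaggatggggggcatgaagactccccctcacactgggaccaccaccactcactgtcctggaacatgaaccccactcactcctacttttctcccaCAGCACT
Its bases are 39.3% cytosine on this strand. The remaining peaks were each in 1 list and in introns. Setdb1 had one at chr3:95356650-95356799, 0.403 kb from its start. Daxx had one at chr17:33913016-33913165 and Mphosph8 one at chr14:56682391-56682540. Morc3 had chr16:93858282-93858431 and chr16:93865484-93865633. Those of Daxx and the first of Morc3 are wholly repeat-masked. Without replicate 3, 4 members held a peak on the opposite strand.

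**Figure D5:**
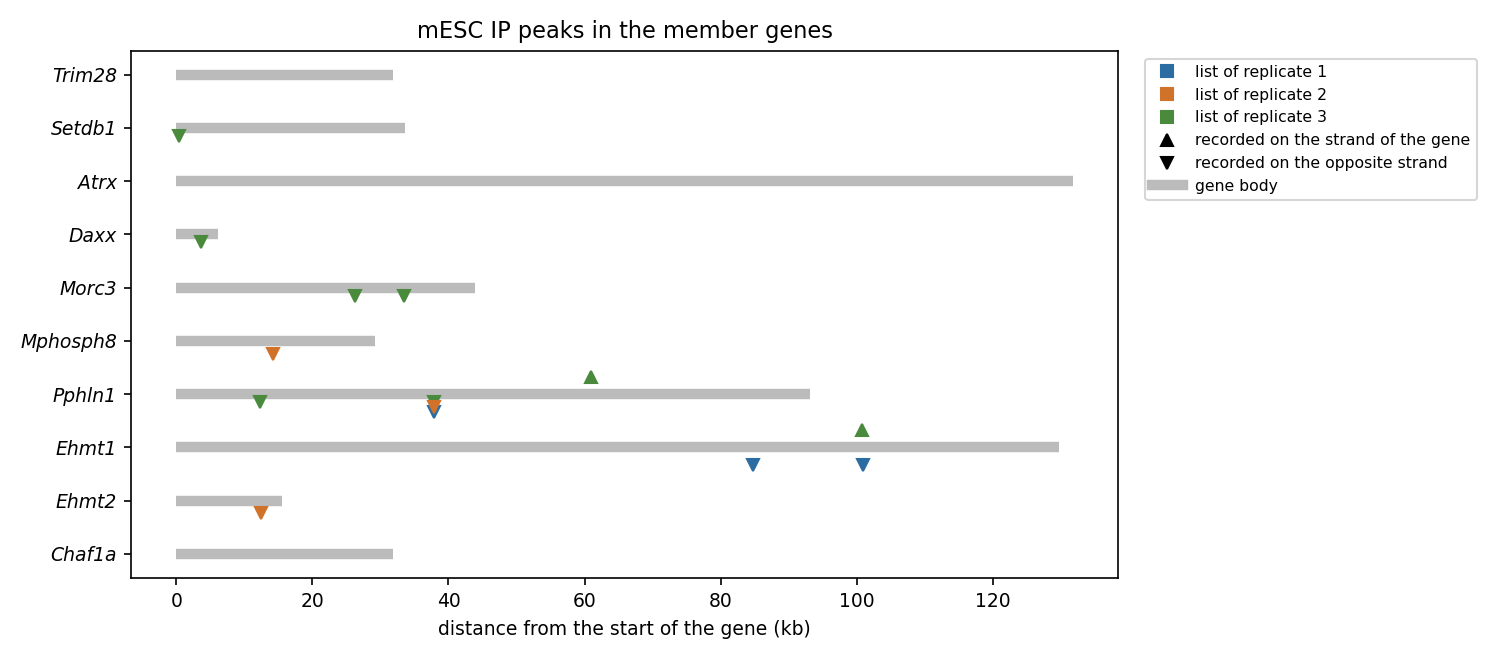
Peaks of the 3 mESC IP lists in the member genes, by distance from the start of the gene in kilobases; grey bars are gene bodies, colours are lists, and triangles point down for peaks recorded on the strand opposite to the gene. The 3 lists coincide once, in Pphln1 at 37.8 kb, and Trim28, Atrx and Chaf1a hold none.

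Genes of the same pathway outside the 10 members were read from 6 lists of 52 genes in all. In mESC 45 of 50 tested genes were called lower in IP and 2 higher, and 47 lay below the median of all tested genes. With library size scaling alone 34 were called lower and 3 higher. In K562 19 of 49 were called lower and 3 higher. Between the lines 21 of 46 were higher in K562 and 2 lower. Library size scaling alone gave 11 lower and 5 higher in K562, and 15 higher and 3 lower between the lines. The percentages called over all genes, given above for each comparison, are the background for these counts. They do not take Input level into account, and the lists were not set against genes of their own level. In mESC the bin medians of log2 IP/Input ran from -1.26 at 20 to 50 CPM to -2.10 at 500 CPM or more. What part of the counts goes with level was not tested.

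Of the HUSH and SETDB1 partners, all 6 were lower in mESC (median log2 IP/Input -2.55). They ran from Fam208a, the mouse gene for the HUSH subunit TASOR, at -3.09 (SE 0.12) to Atf7ip, which stabilises SETDB1, at -1.34 (SE 0.09). In K562, 4 of 6 were lower, with TASOR at -1.23 (SE 0.28) and MORC2 highest at -0.10 (SE 0.25, not called). With library size scaling alone TASOR kept its call (-0.96), and ATF7IP, ATF7IP2 and RIF1 lost theirs. Between the lines, 3 of 4 tested were higher in K562, ATF7IP2 by 1.33, RESF1 by 1.53 and RIF1 by 1.11.

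Of the 7 other H3K9 methyltransferases and partners, 4 were lower and 2 higher in mESC (median -1.67). With library size scaling 2 were called lower and 2 higher. Setdb2 was lowest at -2.64 (SE 0.29). Prdm16, a zinc finger methyltransferase, was highest at 2.33 (SE 0.12), with 26.4 CPM in Input and 261 CPM in IP. In K562 PRDM16 was again highest at 3.68 (SE 0.62), on 12 IP counts, while 3 genes were lower. The lowest was SUV39H2, whose 3 IP counts gave a CPM ratio of 0.245 with an exact 95% interval from 0.0505 to 0.718. MECOM was lower in K562 than in mESC by -2.91 (SE 0.43).

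The H3K9 readers were lower in mESC in 7 of 7 tested (median -1.93), from Cbx3, an HP1 protein, at -2.51 (SE 0.22) to Zfp462 at -1.19 (SE 0.12). With library size scaling 6 were called lower, and Zfp462 (-0.18) lost its call. Adnp was listed at 0 in all mESC libraries. In K562, 2 of 6 were lower, CDYL and ADNP (-0.89, SE 0.21), and UHRF1 was highest at 0.05 (SE 0.23, not called). The HP1 genes CBX1, CBX3 and CBX5 and UHRF1 were higher in K562 than in mESC, by 1.11 to 1.78, of which CBX1 (0.83, adjusted p = 0.157) and CBX5 (0.80, adjusted p = 0.0758) lost the call with library size scaling. CDYL lost its K562 call in the same way.

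Of 10 H3K9 demethylases, 8 were lower in mESC (median -1.72), lowest Kdm1a at -2.68 (SE 0.12), while Kdm7a at -0.21 (SE 0.18) was not called. With library size scaling 5 were called lower, and Kdm7a (0.79) was called higher. In K562, 3 of 9 were lower, lowest JMJD1C at -1.14 (SE 0.13), and KDM4D was highest with 2 IP counts, a CPM ratio of 1.46 with an interval from 0.175 to 5.35. KDM1A was higher in K562 than in mESC by 1.93 (SE 0.31), as were KDM3A, KDM4B, KDM4C and JMJD1C, and KDM4B and JMJD1C lost the call with library size scaling.

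The histone chaperones and remodellers were lower in mESC in 12 of 12 (median -2.39). Asf1a, a carrier of H3 and H4, was lowest at -4.32 (SE 0.35) and its paralogue Asf1b highest at -1.36 (SE 0.20). Chaf1b, the partner of Chaf1a in CAF-1, was at -1.43. With library size scaling 10 of the 12 were called lower, and Asf1b (-0.35) and Chaf1b (-0.42) lost their calls. In K562, 3 of 12 were lower, lowest HELLS at -2.23 (SE 0.44) on 6 IP counts, and H3-3B, which encodes H3.3, was higher at 1.13 (SE 0.37). Between the lines HIRA, RBBP4, DEK, UBN1 and CABIN1 were higher in K562, by 0.74 to 2.05, and UBN1 and CABIN1 lost the call with library size scaling. Of the SUMO genes, which serve TRIM28 through its sumoylation, 8 of 8 tested were lower in mESC (median -1.97), and 5 with library size scaling. The SUMO protease gene Senp7 was highest at -0.71 (SE 0.17), and it stood at 0.30 with library size scaling. In K562, 4 of 9 were lower, SENP7 lowest at -1.34 (SE 0.23), and SUMO3 was higher at 1.21 (SE 0.41). PIAS4 differed by 1.77 in favour of K562, and SENP7 by -1.26.

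The genes whose levels ran most like those of 3 members were sought over all 12 libraries, by Euclidean distance of log2(CPM + 1) centred on each gene, among 14240 genes. NOB1 (0.584) and MAT2A (0.657) were nearest to TRIM28, and each stood lower in IP than in Input in mESC and higher in K562. That pattern follows from choosing them by distance over the same libraries and is no separate result. MAT2A, which makes the methyl donor S-adenosylmethionine, went from 274 to 89.4 CPM in mESC and from 104 to 165 CPM in K562. UQCRC1 (0.722) and BNIP2 (0.736) were nearest to SETDB1, and TNPO1 (0.965) and TET1 (1.01) to ATRX. TET1, which oxidises 5-methylcytosine in DNA, had 1183 CPM in mESC Input and 579 CPM in mESC IP.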

How the data were processed

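Raw counts per gene for 12 libraries and peak positions for the 3 mESC IP libraries were used as the authors deposited them. Per the study's methods and the submitters' processing notes, Trimmomatic 0.39 trimmed the reads, HISAT2 2.1.0 aligned them to mm10 or hg38, Picard marked duplicates, SAMtools 1.16.1 split the remaining reads by strand, and MACS2 called peaks by library and strand with 150-bp extension. Whether the gene counts were made after that removal, and which counter, feature and strand setting made them, is not given for these libraries in the sources used here. Summary lines stayed out. They were 19.0% to 19.3% of records in mESC Input and 71.4% to 71.7% in mESC IP. In K562 they were 26.0% to 26.2% in Input and 60.7% to 61.4% in IP.

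Positions and exons came from GENCODE M21 (GRCm38) and 44 (GRCh38); 99.9% of mouse and 99.2% of human identifiers matched. Mouse sequences came from RefSeq GRCm38.p6. The main test of genes was that of edgeR 4.0.16, run in R 4.3.3 (quasi-likelihood test, TMM, filterByExpr, Benjamini-Hochberg at 0.05 over all genes tested), within each line and as an interaction over genes sharing a symbol. The SE is the absolute log2 value over the square root of F. On simulated counts, 86 of 100 genes changed by a log2 of 1 were recovered in mESC (15429 genes), 58 in K562 (13400) and 44 in the interaction (11923). Of all calls there, 3.14%, 6.59% and 8.45% were false. Only genes with enough expected IP counts were changed, so DAXX and EHMT2 in K562 are not covered. The simulated spread was low and the same for Input and IP, so recovery in the real libraries may be lower. Peaks were intersected with bedtools 2.31.1 at 1 bp or more. DESeq2 1.42.0, RLE and library size scaling, no filter, a GC correction, thinning, a replicate block and leaving out libraries were the alternatives.

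The members and lists were chosen with earlier results of these data known. Named were all 10 members, the extremes of each list with a mean of at least 5 CPM, the 2 nearest genes of TRIM28, SETDB1 and ATRX, and peaks in at least 2 lists or otherwise the widest; other list genes and the Ehmt2 sequence were chosen after their values were seen. A list gene and a peak that the rule would name are not reported here.

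K562 Input replicate 1 and each of replicates 2 and 3 differed by no more than counting noise over genes (chi-square per degree of freedom 0.912 and 0.918), replicates 2 and 3 differed slightly (1.03, p = 0.00439), and no pair agreed over 20 GC bins (27.2, 18.3 and 80.4), so all were kept as 3; counting them as 1 sample was added after seeing the data. Intervals cover counting error only, and reads are not independent molecules.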

Additional observations from a re-analysis of the deposited data

Results flagged for a closer look

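A difference between the lines past the test of the interaction put 5 members here. The log2 IP/Input in K562 minus that in mESC was 2.19 for TRIM28, 1.85 for EHMT1, 1.30 for MPHOSPH8, 1.18 for MORC3 and 0.79 for ATRX (edgeR adjusted p of 8.77e-06, 7.62e-09, 0.0111, 0.00877 and 0.0412). TRIM28 and EHMT1 were higher in IP than in Input in 3 of 3 K562 IP libraries and lower in 3 of 3 mESC IP libraries. MPHOSPH8 showed the same signs in CPM, although its K562 value did not pass by itself. MORC3 and ATRX were lower in IP in both lines, and the size of the difference was what passed. Species, cell line and IP depth cannot be told apart in this comparison: the K562 IP libraries held 93110 to 111286 gene counts and the mESC IP libraries 473398 to 592324. All groups held 3 libraries, which is too few for an outlier test.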

How the results depend on the processing

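In mESC, the 10 members stayed called lower under RLE scaling, DESeq2, no filter, the GC correction, the replicate block and each left-out library. With library size scaling alone Daxx (0.063), Ehmt2 (0.18) and Chaf1a (0.072) turned positive and lost their calls and Pphln1 (0.40) was called higher; with Input thinned to the IP depth the values were 0.38, 0.68, 0.20 and 0.52. The medians of all genes shift with these settings, to 0.83 and 0.92. In K562, 5 members were called in the main setting, 2 with library size scaling, 2 with the GC correction, 1 with thinned Input, 2 with K562 Input counted as 1 sample, and 3 to 4 without any 1 library. EHMT2 crossed 0 with RLE (0.050), library size scaling (0.20) and DESeq2 (0.053) and lay between -0.29 and 0.23 with a library left out; MPHOSPH8 reached -0.16 without the filter and CHAF1A 0.40 with thinned Input, none of them called. For the difference between the lines, 5 members were called in the main setting, 3 with RLE scaling, 2 with thinned Input and 3 to 6 without any 1 library. EHMT2 crossed 0 with RLE (-0.31), library size scaling (-0.19), DESeq2 (-0.31) and thinned Input (-0.32), and lay between -0.10 and 0.41 with a library left out. CHAF1A was 0.0099 without the filter and 0.014 with K562 Input as 1 sample and lay between -0.24 and 0.034, and DAXX between -8.47 and 0.15, with a library left out. The cause of these changes was not tested.

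Over all genes, calls moved by over 1.5 times with thinned Input in K562 (1506 against 4576) and between the lines (1800 against 4407), without the filter in K562 (8237) and with K562 Input counted as 1 sample (3026). Of the wider lists, 22 genes were called in K562 and 3 with thinned Input, and 23 between the lines and 9 with thinned Input. With longest transcripts, 0 neighbours overlapped in Input level in either line, against 1 in each; leaving out a library gave 1 in mESC each time and 0 to 1 in K562. A peak on the opposite strand in at least 2 lists was held by 1 member against 7, and 4 to 6 members held one without 1 list. A stricter peak threshold was not run because the lists carry no score.

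The main test did not pair libraries by replicate number, and whether the numbers pair them is not settled. In mESC, deviations of same-numbered Input and IP libraries correlated at 0.021 to 0.028, each highest for its own number. Libraries of other numbers there gave -0.024 to 0.004. In K562 same-numbered libraries gave -0.006 to 0.023. With the replicate block 10 members were called in mESC, 4 in K562 (TRIM28 lost, 0.59, adjusted p = 0.0922) and 5 between the lines. The wider lists gave similar counts of calls under the block.

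Depth limits the K562 IP values most: DAXX, EHMT2 and SETDB1 rest on 1, 5 and 18 counts over 3 libraries. Where leaving out a library left 2 in a group, the spread was pooled over the groups.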
